A study of Mus musculus with 12 samples.

Results

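The Nduf genes encode the nuclear subunits and part of the assembly factors of mitochondrial complex I, and their transcripts were followed here in bleomycin-injured mouse lung with and without the transcription factor Fra-1. Members were all array transcript clusters that carry exactly 1 gene symbol beginning with Nduf. This gave 48 clusters for 43 genes, of 21789 clusters with 1 symbol for 19938 genes in the whole data set. For the 5 genes with several clusters (Ndufa11, Ndufab1, Ndufb11, Ndufc1 and Ndufs3) the cluster with the highest mean over the 12 arrays was used. The 43 genes were split by name into 10 core genes (Ndufs and Ndufv), 26 accessory genes and 7 assembly factors (Ndufaf). The rule itself uses no measured difference between groups, but it was chosen with earlier results of these data known.

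Some of the names do not match the present view of the complex. Ndufs1, Ndufs3, Ndufs7, Ndufs8, Ndufv1 and Ndufv2 are catalytic core subunits, whereas Ndufs4, Ndufs5, Ndufs6 and Ndufv3 are accessory subunits despite their names. Ndufa4 is now known as a subunit of cytochrome c oxidase, Ndufa4l2 is its paralogue, and Ndufab1 is the mitochondrial acyl carrier protein, which also serves fatty acid and lipoic acid synthesis. A further 3 clusters with several symbols, of Ndufs5 and its pseudogene and of Ndufb4b and Ndufb4, did not meet the rule. None of the 7 mitochondrially encoded complex I subunits was matched to a cluster with 1 symbol.

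Complex I (NADH:ubiquinone oxidoreductase) is the entry point for electrons from NADH into the respiratory chain and pumps protons across the inner mitochondrial membrane. Its matrix arm holds the flavin and iron-sulfur clusters that carry the electrons, and its membrane arm holds the proton pumps. Accessory subunits surround this catalytic core and stabilize it, and assembly factors join the modules without staying in the finished enzyme. In lung, alveolar type 2 cells are known for their many mitochondria, and inflamed or fibrotic tissue is known to lean on glycolysis.

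RNA of the left lung of 12 mice was hybridised to Affymetrix MoGene 1.0ST arrays, 1 array per mouse and 3 mice in each of 4 groups. KOT mice were Fra-1-/- and received bleomycin, KOC mice were Fra-1-/- and received PBS, WTT mice were Fra-1+/+ and received bleomycin, and WTC mice were Fra-1+/+ and received PBS. Bleomycin (0.075 U in 30 µL of PBS) or PBS alone was instilled into the trachea, and the lungs were taken at 5 days. Mice of all 4 groups had a C57/129S background and an age of 2 months by the labels, whereas the methods give a somewhat older range of ages. By the methods all carried a floxed Fra-1 allele. The Fra-1-/- mice also carried a Meox2 (Sox2)-Cre transgene that deletes it in the whole embryo, so that effects of Cre, of Fra-1 loss during development and of Fra-1 loss in the adult lung cannot be told apart. Each mouse is named by its group and animal number. Whole lung pools many cell types, so a lower share of cells of a type and less transcript per cell cannot be told apart.

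The values are log2 RMA signals, whose medians ran from 7.14 to 7.22 over the 12 arrays, and 2 arrays of 1 group correlated at 0.986 to 0.992. Fosl1, the gene of Fra-1, read 7.33, 7.32 and 7.28 in KOT, 6.68, 6.26 and 6.56 in KOC, 7.81, 8.19 and 8.32 in WTT and 6.37, 6.76 and 6.86 in WTC. The KOC and WTC arrays thus overlapped and the KOT arrays lay below the WTT arrays. Whether the Fosl1 probes fall inside the floxed stretch is not given in the sources used here, so this signal does not check the deletion. All mice are labelled female, but on 12 of 12 arrays Xist lay below the array median and the 3 Y-linked genes measured (Eif2s3y, Kdm5d and Uty) lay above it, so the sex labels did not match in any group. Lung markers were present, with a mean log2 level of the 10 alveolar type 2 genes between 11.42 and 12.37 over the arrays.

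Taken as a whole, complex I transcripts lay at nearly the same level in all 4 groups. The mean log2 signal of the 43 genes ran from 9.26 to 9.29 in KOT, from 9.24 to 9.31 in KOC, from 9.22 to 9.30 in WTT and from 9.21 to 9.27 in WTC. The ranges of the 4 groups overlapped, and the span over all 12 arrays was 0.10. For the 10 core genes the mean ran from 9.84 to 9.90 in KOT, 9.79 to 9.89 in KOC, 9.74 to 9.83 in WTT and 9.77 to 9.86 in WTC. These core means lay higher on the 3 KOT than on the 3 WTT arrays, by a narrow margin (9.844 on KOT 72 and 9.832 on WTT 161). For the 26 accessory genes the mean ran from 9.49 to 9.53 in KOT, 9.46 to 9.55 in KOC, 9.45 to 9.59 in WTT and 9.44 to 9.51 in WTC, with overlapping groups. For the 7 assembly factors it ran from 7.51 to 7.56 in KOT, 7.57 to 7.60 in KOC, 7.48 to 7.61 in WTT and 7.48 to 7.54 in WTC, so that the 3 KOC arrays lay above the 3 KOT and the 3 WTC arrays. The spread within groups was small, with a median residual SD of 0.09 over the 43 genes against 0.13 over all 23410 clusters tested.

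The first question was how bleomycin changed these transcripts in each genotype. A gene counted as called at an adjusted p under 0.05 in limma, which fits 1 mean per group to all 12 arrays and adjusts by Benjamini-Hochberg over the 23410 clusters with a symbol. In KOT against KOC 2 of 43 genes were called higher, Ndufb6 and Ndufa8, where 7.42% of all clusters were, and 1 was called lower, Ndufb3, where 7.98% of all clusters were. In WTT against WTC the same 2 genes, Ndufa8 and Ndufb6, were called higher, where 10.2% of all clusters were, and 0 genes were called lower, where 11.3% of all clusters were. All called members were accessory subunits, which are 26 of the 43 genes, and 0 of the 10 core genes and 0 of the 7 assembly factors were called in either response. So few calls do not tell the classes apart. With array weights 8 genes were called in KOT against KOC, among them the core gene Ndufs7 and the assembly factor Ndufaf2, both lower. Leaving out WTT 160 added the assembly factor Ndufaf3 in WTT against WTC, and leaving out KOT 80 added the accessory gene Ndufa2 in KOT against KOC.

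Ndufb6, a subunit of the membrane arm, had log2 signals of 10.34, 10.37 and 10.60 in KOT, 10.08, 10.06 and 9.87 in KOC, 10.28, 10.38 and 10.39 in WTT and 9.89, 10.05 and 10.01 in WTC. All 6 bleomycin arrays lay above all 6 PBS arrays. The gene rose by 0.44 (SE 0.09, 1.35-fold, adjusted p = 0.00748 by limma) in KOT against KOC and by 0.36 (SE 0.09, 1.29-fold, adjusted p = 0.0138) in WTT against WTC. The difference between the responses was 0.07, with a 95% interval from -0.20 to 0.35.

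Ndufa8, a membrane-arm subunit on the side of the intermembrane space, read 9.65, 9.74 and 9.67 in KOT, 9.32, 9.49 and 9.40 in KOC, 9.76, 9.78 and 9.71 in WTT and 9.42, 9.38 and 9.49 in WTC. Here too the bleomycin arrays lay above the PBS arrays without overlap in both genotypes. It rose by 0.28 (SE 0.07, 1.22-fold, adjusted p = 0.0152 by limma) in KOT against KOC and by 0.32 (SE 0.07, 1.24-fold, adjusted p = 0.00701) in WTT against WTC. The responses differed by -0.03 (95% interval -0.24 to 0.18). Without KOC 53, the adjusted p of Ndufa8 in KOT against KOC was 0.0709.

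Ndufb3, a small membrane-arm subunit, read 7.86, 7.91 and 7.94 in KOT, 8.34, 8.36 and 8.29 in KOC, 8.04, 7.71 and 7.90 in WTT and 7.99, 7.99 and 8.09 in WTC. The 3 KOC arrays stood above the other 9 arrays. The gene fell by 0.43 on the log2 scale (SE 0.08, adjusted p = 0.0058 by limma) in KOT against KOC. In WTT against WTC the difference was -0.14 (SE 0.08, adjusted p = 0.254), with overlapping groups, and the difference between the responses was -0.28 (95% interval -0.54 to -0.03, adjusted p = 0.963).

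**Figure D1:**
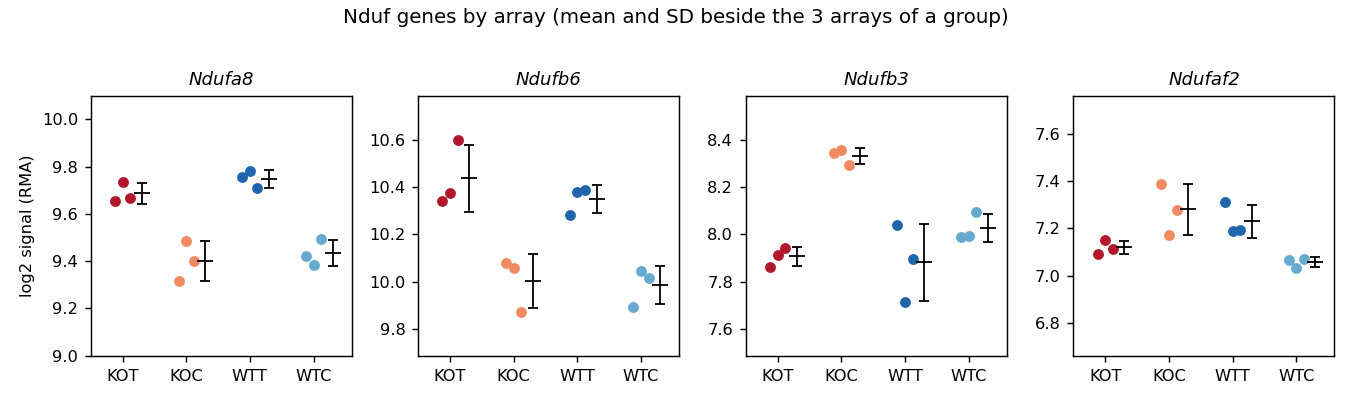
Log2 RMA signal (y axis) of Ndufa8, Ndufb6, Ndufb3 and Ndufaf2 on each array (points) in KOT, KOC, WTT and WTC (x axis), with the mean and SD of the 3 arrays of a group as bars beside them. Ndufa8 and Ndufb6 lay higher with bleomycin in both genotypes, while the 3 KOC arrays of Ndufb3 (8.29 to 8.36) lay above all others.

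The promoter letters of the 3 called genes are shown because these members passed the test with bleomycin in at least 1 genotype, and because complex I promoters are known to hold sites of nuclear respiratory factors and ETS factors. Given are the 250 bases before the annotated start from RefSeq (build GRCm38.p6), at chr4:40279422-40279671 on the minus strand for Ndufb6, chr2:36049339-36049588 on the minus strand for Ndufa8 and chr1:58586147-58586396 on the plus strand for Ndufb3. Capitals mark any match on either strand to 4 motifs, GCATGCGC (core of the NRF-1 site), CCGGAAG (ETS), AAGATGG (YY1) and TGACTCA (AP-1, the site of Fra-1 dimers).
Ndufb6: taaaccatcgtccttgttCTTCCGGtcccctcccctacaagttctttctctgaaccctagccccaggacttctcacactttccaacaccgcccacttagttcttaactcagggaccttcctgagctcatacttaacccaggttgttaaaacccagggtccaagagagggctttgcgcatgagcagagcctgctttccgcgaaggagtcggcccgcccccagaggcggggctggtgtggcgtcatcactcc
Ndufa8: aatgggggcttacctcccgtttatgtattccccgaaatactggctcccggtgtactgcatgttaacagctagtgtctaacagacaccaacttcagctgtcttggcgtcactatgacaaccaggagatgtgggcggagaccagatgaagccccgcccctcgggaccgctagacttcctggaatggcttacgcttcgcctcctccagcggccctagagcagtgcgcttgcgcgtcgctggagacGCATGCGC
Ndufb3: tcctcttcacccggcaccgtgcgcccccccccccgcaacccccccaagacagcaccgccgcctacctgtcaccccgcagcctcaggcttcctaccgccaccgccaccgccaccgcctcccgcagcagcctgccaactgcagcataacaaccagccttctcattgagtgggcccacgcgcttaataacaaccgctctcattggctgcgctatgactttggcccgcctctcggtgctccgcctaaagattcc
The Ndufa8 window held the NRF-1 letters next to the start, the Ndufb6 window held the ETS letters near its far end, read on the other strand, and the Ndufb3 window held none of the 4. No marked matches overlapped each other. In windows of 300 bases (250 before and 50 after the start), available for 38 of the 43 genes, the NRF-1 letters were found for 5 genes, or 13.2%, against 3.05% of 27025 genes with a window. The YY1 letters were found for 7 genes (18.4% against 7.28%), the ETS letters for 5 genes (13.2% against 9.93%) and the AP-1 letters for 3 genes, Ndufa13, Ndufa5 and Ndufa9 (7.89% against 5.95%). None of the 3 genes with AP-1 letters was called in any comparison, and letters in a window are a description that does not show binding.

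Among the core genes the responses to bleomycin ran from -0.12 (Ndufs7) to 0.16 (Ndufs4) in KOT against KOC and from -0.16 (Ndufs7) to 0.16 (Ndufv2) in WTT against WTC. Ndufv2, an iron-sulfur subunit of the NADH-oxidising module, read 11.11, 10.97 and 11.18 in KOT, 10.93, 11.03 and 10.95 in KOC, 11.01, 11.13 and 11.11 in WTT and 10.86, 10.95 and 10.94 in WTC. Its WTT arrays lay above its WTC arrays, at a difference of 0.16 (SE 0.07, adjusted p = 0.141 by limma), and its KOT and KOC arrays overlapped (0.12, adjusted p = 0.34). Ndufs7, which holds the last iron-sulfur cluster before ubiquinone, read 11.83, 12.04 and 11.88 in KOT, 12.10, 12.11 and 11.88 in KOC, 11.74, 11.79 and 11.74 in WTT and 11.85, 11.90 and 11.98 in WTC. The WTT arrays of Ndufs7 lay below its WTC arrays (-0.16, SE 0.08, adjusted p = 0.214), whereas KOT and KOC overlapped (-0.12, adjusted p = 0.395).

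Ndufs3, a subunit of the module that hands electrons to ubiquinone, read 10.15, 10.01 and 10.23 in KOT, 9.98, 10.01 and 9.98 in KOC, 9.90, 9.99 and 10.07 in WTT and 9.99, 9.95 and 10.03 in WTC. Ndufs4, which helps to hold the NADH-oxidising module in place, read 10.39, 10.49 and 10.58 in KOT, 10.29, 10.39 and 10.29 in KOC, 10.15, 10.45 and 10.33 in WTT and 10.19, 10.21 and 10.35 in WTC. For both genes the KOT arrays lay above the KOC arrays by a narrow margin, while WTT and WTC overlapped. The differences between KOT and KOC were 0.14 (adjusted p = 0.238) for Ndufs3 and 0.16 (adjusted p = 0.257) for Ndufs4, so that neither passed the test. Ndufs6, which binds zinc, read 9.05, 9.08 and 8.92 in KOT, 8.94, 8.93 and 9.05 in KOC, 8.99 to 9.02 in WTT and 8.81, 8.95 and 8.93 in WTC. Only its WTT and WTC arrays did not overlap (0.11, SE 0.07, adjusted p = 0.33). Ndufv3 read 8.72, 8.60 and 8.71 in KOT, 8.66, 8.79 and 8.67 in KOC, 8.60, 8.82 and 8.63 in WTT and 8.69, 8.62 and 8.62 in WTC, and its groups overlapped in every comparison.

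Further accessory genes came close to the threshold with bleomycin without passing it. Ndufa10, a matrix-side subunit with a nucleoside kinase fold, read 10.50, 10.54 and 10.51 in KOT, 10.30, 10.35 and 10.40 in KOC, 10.66, 10.52 and 10.53 in WTT and 10.46, 10.31 and 10.34 in WTC. It lay higher on every bleomycin array than on every PBS array of the same genotype, by 0.17 (SE 0.07, adjusted p = 0.127 by limma) in KOT against KOC and by 0.20 (SE 0.07, adjusted p = 0.0579) in WTT against WTC. Without WTC 76, the adjusted p of Ndufa10 in WTT against WTC was 0.0436. Ndufb8, a membrane-arm subunit, read 9.51, 9.38 and 9.45 in KOT, 9.19, 9.31 and 9.27 in KOC, 9.30, 9.33 and 9.30 in WTT and 9.16, 9.09 and 9.22 in WTC. Neither genotype's groups overlapped for Ndufb8, at 0.19 (SE 0.07, adjusted p = 0.0822) and 0.15 (SE 0.07, adjusted p = 0.13).

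Ndufb11, an X-linked membrane-arm subunit, read 11.29, 11.44 and 11.32 in KOT, 11.51, 11.48 and 11.44 in KOC, 11.16, 11.42 and 11.33 in WTT and 11.44, 11.58 and 11.48 in WTC. The WTT arrays lay below the WTC arrays (-0.20, SE 0.08, adjusted p = 0.109 by limma), and the KOT and KOC arrays overlapped at their edges (-0.13, adjusted p = 0.342). Ndufab1, the acyl carrier protein, read 9.32, 9.23 and 9.25 in KOT, 9.20, 9.16 and 9.10 in KOC, 9.27, 9.10 and 9.24 in WTT and 9.03, 9.16 and 9.09 in WTC. Its differences were 0.11 in both responses, with adjusted p of 0.327 in KOT against KOC and 0.317 in WTT against WTC. Ndufa4l2, known as a gene that rises under low oxygen, read 8.64, 8.42 and 8.37 in KOT, 8.64, 8.81 and 8.75 in KOC, 8.69, 8.72 and 8.51 in WTT and 8.43, 8.55 and 8.81 in WTC. It differed by -0.26 (SE 0.11, adjusted p = 0.147) in KOT against KOC and by 0.04 (SE 0.11, adjusted p = 0.853) in WTT against WTC, and the groups overlapped in both.

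The assembly factors named by the smallest p were Ndufaf2, Ndufaf3 and Ndufaf4. Ndufaf4, which acts with Ndufaf3 early in assembly, read 8.02, 7.89 and 8.04 in KOT, 8.05, 7.97 and 8.09 in KOC, 8.09, 7.95 and 8.11 in WTT and 7.95, 7.84 and 7.76 in WTC. It differed by -0.05 (SE 0.08, adjusted p = 0.731 by limma) in KOT against KOC and by 0.20 (SE 0.08, adjusted p = 0.0991) in WTT against WTC, with 1 WTT and 1 WTC array at nearly the same value. Ndufaf3 read 9.44, 9.71 and 9.50 in KOT, 9.70, 9.72 and 9.59 in KOC, 9.61, 9.36 and 9.23 in WTT and 9.58, 9.62 and 9.79 in WTC. The groups overlapped in both responses of Ndufaf3, at -0.12 (adjusted p = 0.51) and -0.26 (SE 0.11, adjusted p = 0.111).

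Ndufaf2, a paralogue of Ndufa12 that acts late in assembly, was the member whose responses lay furthest apart. It read 7.09, 7.15 and 7.11 in KOT, 7.39, 7.17 and 7.28 in KOC, 7.31, 7.19 and 7.19 in WTT and 7.07, 7.03 and 7.07 in WTC. The KOT arrays lay below the KOC arrays (-0.16, SE 0.07, adjusted p = 0.159), and the WTT arrays lay above the WTC arrays (0.17, SE 0.07, adjusted p = 0.109). The difference between the responses was -0.33 (SE 0.10, 95% interval -0.55 to -0.11) and did not pass the test (adjusted p = 0.845 by limma). Over all clusters 0% were called for this difference and 0 members were. At an unadjusted p under 0.05 it took in 3 members, Ndufaf2, Ndufb3 and Ndufaf4 (-0.25, 95% interval -0.49 to -0.01), or 6.98%, beside 5.1% of all clusters.

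Taking the 43 genes as a list, the median response was -0.01 in KOT against KOC and 0.03 in WTT against WTC, beside medians of 0.02 and 0.02 over all clusters. The differences ran from -0.43 (Ndufb3) to 0.44 (Ndufb6) in KOT against KOC and from -0.26 (Ndufaf3) to 0.36 (Ndufb6) in WTT against WTC. The 95% interval lay within 0.5 of 0 for 40 of 43 genes in KOT against KOC, where 71.0% of all clusters did so, and for 42 of 43 genes in WTT against WTC, where 68.0% did. The exceptions were Ndufb3, Ndufb6 and Ndufa2 in KOT against KOC and Ndufb6 in WTT against WTC. Ndufa2, which was not among the genes with the smallest p and is named for this interval, differed by -0.33 (SE 0.12, adjusted p = 0.0823) in KOT against KOC and by -0.10 (adjusted p = 0.625) in WTT against WTC.

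By looser rules the shares of members also lay below those of all clusters in both responses, though near them for groups that did not overlap. The members are not independent, and the gap between the shares was not tested. At an unadjusted p under 0.05, 8 of 43 genes (18.6%) were taken in for KOT against KOC beside 28.8% of all clusters, and 9 of 43 (20.9%) for WTT against WTC beside 33.6%. Groups did not overlap for 12 genes (27.9%) in KOT against KOC beside 35.4% of all clusters, and for 13 genes (30.2%) in WTT against WTC beside 35.7%. The local-pooled-error test (LPE) named in the methods, at an adjusted p under 0.01, called 0 members in KOT against KOC, where it called 8.08% of all clusters, and 0 members in WTT against WTC, where it called 7.92%. The responses of the 2 genotypes, which share no array, had the same sign for 31 of 43 genes (72.1%) beside 74.4% of all clusters. Across the 43 genes, which are not independent replicates, they correlated at r = 0.64 (Spearman's rho 0.56), beside r = 0.78 across all clusters.

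**Figure D2:**
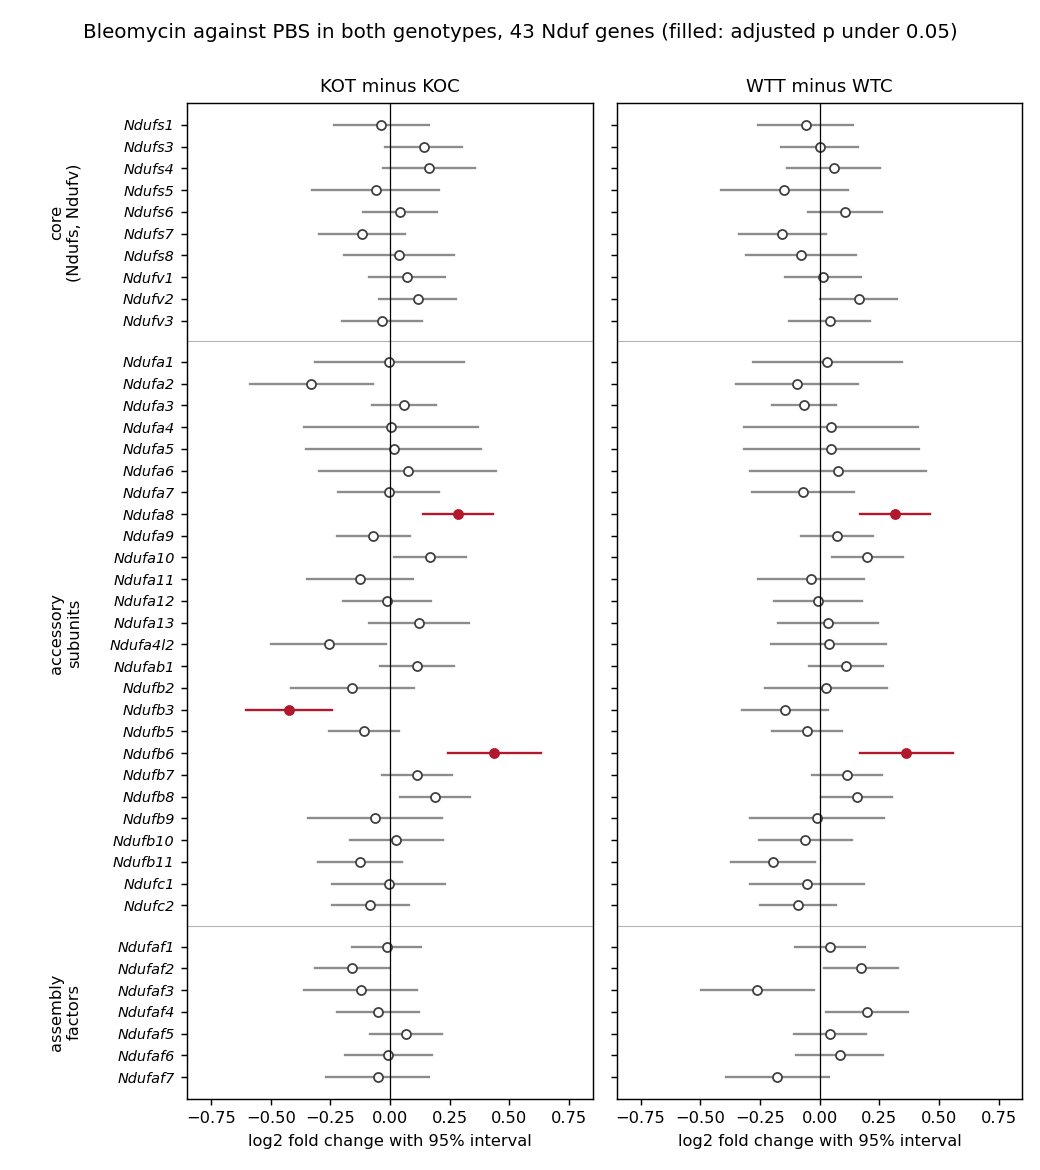
Log2 fold change (x axis) with its 95% interval for each of the 43 Nduf genes (rows, by class) in KOT minus KOC (left) and WTT minus WTC (right), with filled red points for an adjusted p under 0.05. Ndufa8 and Ndufb6 stand to the right of 0 in both panels and Ndufb3 to the left in KOT minus KOC, whereas all core genes and assembly factors are open points between -0.26 and 0.20.

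The second question was whether these transcripts depended on Fra-1 under either treatment. In KOT against WTT 0 members were called by limma, where 0.0427% of all clusters were (10 of 23410), and in KOC against WTC 0 members were called, where 0.0128% were (3 clusters). LPE called 0 members in KOT against WTT (0.705% of all clusters) and 0 in KOC against WTC (1.79%). The lowest adjusted p of a member was 0.506 in KOT against WTT and 0.404 in KOC against WTC. The 95% interval of every one of the 43 genes lay within 0.5 of 0 in both comparisons, where 82.3% and 83.3% of all clusters did so, and the outermost bounds were -0.46 and 0.38 in KOT against WTT and -0.40 and 0.49 in KOC against WTC.

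With bleomycin the differences between genotypes ran from -0.21 (Ndufb2) to 0.18 (Ndufs4), at a median of 0.02 beside -0.02 over all clusters. No member had an unadjusted p under 0.05, where 10.6% of all clusters did, and 5 genes (11.6%) did not overlap between KOT and WTT, where 15.7% did. These 5 were Ndufs7 (0.16, SE 0.08), Ndufb8 (0.13, SE 0.07), Ndufa11 (0.12, SE 0.10), Ndufa9 (-0.08, SE 0.07) and Ndufaf2 (-0.11, SE 0.07). Ndufa11, a membrane-arm subunit, read 10.74, 10.68 and 10.77 in KOT, 10.86, 10.99 and 10.72 in KOC, 10.61, 10.61 and 10.61 in WTT and 10.53, 10.53 and 10.89 in WTC. In the other cluster of Ndufa11, not used here, KOT and WTT overlapped (0.015, SE 0.11). Ndufa9, a subunit near the joint of both arms, read 9.38, 9.29 and 9.36 in KOT, 9.28, 9.49 and 9.46 in KOC, 9.43, 9.40 and 9.45 in WTT and 9.33, 9.35 and 9.37 in WTC. The core class leaned one way, with 9 of 10 genes higher in KOT than in WTT at a median of 0.07. Of all 23410 clusters 10722 were higher. The core genes were read on the same arrays and are not independent replicates. Their mean log2 level was 9.740 on WTT 160, the lowest, and 9.832 and 9.812 on WTT 161 and WTT 164. The lowest KOT array, KOT 72, read 9.844, so the groups were apart by a narrow margin. The lowest adjusted p of the class was that of Ndufs4 (0.18, SE 0.09, adjusted p = 0.506 by limma). All 6 catalytic core subunits measured were among the 9. Marker lists that likewise did not overlap between KOT and WTT arrays were those of T cells (mean log2 level 7.82 to 8.10 in KOT and 7.25 to 7.78 in WTT), B cells (8.13 to 9.04 in KOT and 7.08 to 7.98 in WTT) and cardiac muscle (8.62 to 8.92 in KOT and 7.81 to 8.35 in WTT), and their part in the core values was not tested. Ndufb2, another membrane-arm subunit, read 7.86, 7.97 and 7.93 in KOT, 7.86, 8.09 and 8.27 in KOC, 8.30, 7.91 and 8.16 in WTT and 8.04, 8.20 and 8.05 in WTC, with overlapping groups (adjusted p = 0.568 in KOT against WTT).

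With PBS the differences ran from -0.09 (Ndufa3) to 0.31 (Ndufb3), at a median of 0.01 beside -0.01 over all clusters. At an unadjusted p under 0.05 there were 3 members (6.98%), where 9.82% of all clusters were, and the same 3 were the ones whose groups did not overlap, where 16.3% of all clusters did not. All 3 lay higher in KOC than in WTC, Ndufb3 by 0.31 (SE 0.08, adjusted p = 0.404), Ndufaf2 by 0.22 (SE 0.07, adjusted p = 0.414) and Ndufaf4 by 0.19 (SE 0.08, adjusted p = 0.481). The KOC arrays also enter KOT against KOC, in which Ndufb3 fell and the same assembly factors differed by -0.16 (Ndufaf2) and -0.05 (Ndufaf4). Ndufa3, a small membrane-arm subunit with the smallest spread of all members (residual SD 0.04), read 10.04, 10.03 and 10.03 in KOT, 9.91, 9.98 and 10.05 in KOC, 9.98 to 10.03 in WTT and 10.04, 10.08 and 10.09 in WTC. The members Ndufb8, Ndufs8 and Ndufv1 lie on chromosome 19, which also holds Fosl1, and differed by 0.10, 0.00 and -0.02 in KOC against WTC.

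**Figure D3:**
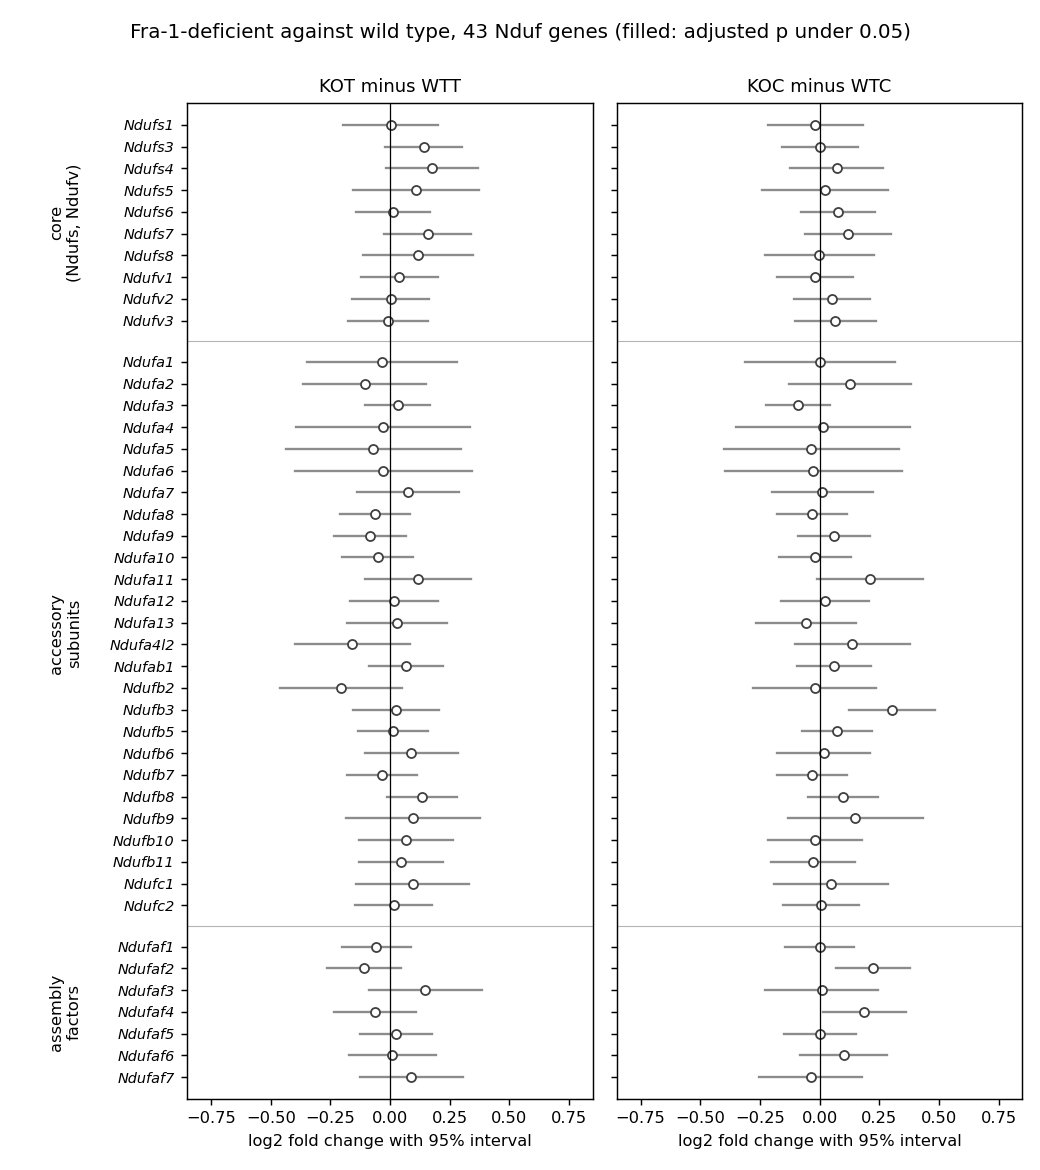
Log2 fold change (x axis) with its 95% interval for each of the 43 Nduf genes (rows, by class) in KOT minus WTT (left) and KOC minus WTC (right), with filled red points reserved for an adjusted p under 0.05. All points are open, and the one furthest from 0 is Ndufb3 in KOC minus WTC at 0.31.

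Ndufa4, Ndufa1, Ndufa5 and Ndufa6 had the widest spread within groups of all members, with residual SDs of 0.23, 0.20, 0.23 and 0.24, a level that 18.4% of all clusters reach. They were singled out after their values were seen. Ndufa4 read 9.85, 9.85 and 9.74 in KOT, 9.53, 9.82 and 10.08 in KOC, 10.13, 9.57 and 9.84 in WTT and 10.04, 9.79 and 9.56 in WTC. Its groups overlapped in all comparisons, with differences of 0.00 (KOT against KOC), 0.05 (WTT against WTC), -0.03 (KOT against WTT) and 0.01 (KOC against WTC), each with an SE of 0.17. The 4 genes left their group means together on the same arrays. From their own group means they deviated by 0.26 to 0.37 on WTT 160 and by -0.32 to -0.28 on WTT 161. On KOC 67 the deviations were 0.11 to 0.27, on WTC 76 they were 0.12 to 0.24, on KOC 53 they were -0.28 to -0.16, and on WTC 158 they were -0.30 to -0.14. All 4 genes were thus high on WTT 160, KOC 67 and WTC 76 and low on WTT 161, KOC 53 and WTC 158.

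Other members went partly with these 4 genes and partly against them. Ndufb2 deviated from its group mean by 0.18 on WTT 160, -0.22 on WTT 161, 0.20 on KOC 67 and -0.21 on KOC 53, as the 4 genes did, but by only -0.06 on WTC 76 and -0.05 on WTC 158. Ndufb10, Ndufa7 and Ndufb3 also lay above their group means on WTT 160 (0.16 to 0.21) and below them on WTT 161 (-0.17 to -0.16). Ndufb9, an accessory subunit of the membrane arm, went the other way, by -0.20 on WTT 160, -0.21 on KOC 67 and -0.21 on WTC 76, and by 0.14 on WTT 161, 0.08 on KOC 53 and 0.22 on WTC 158. Ndufa8, Ndufb8 and Ndufa3 had residual SDs of 0.06, 0.06 and 0.04 over the same arrays. The 3 KOT arrays showed little of this spread, with deviations of the 4 genes between -0.11 and 0.14. The array medians over all clusters tested ran only from 7.66 to 7.71, and what sets these deviations was not tested.

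**Figure D4:**
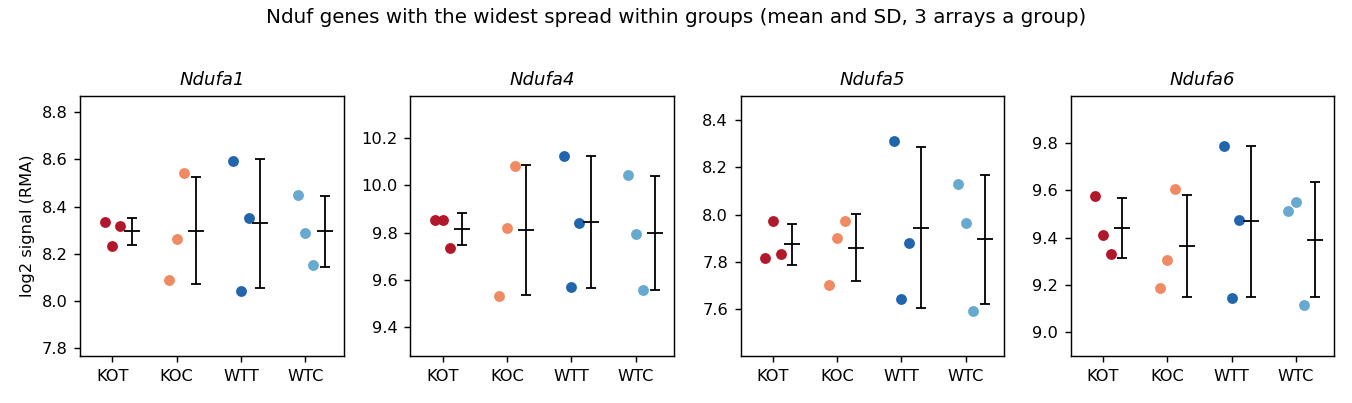
Log2 RMA signal (y axis) of Ndufa1, Ndufa4, Ndufa5 and Ndufa6 on each array (points, in order of animal number) in KOT, KOC, WTT and WTC (x axis), with the mean and SD of the 3 arrays of a group as bars. All 4 genes are high on WTT 160 and low on WTT 161, and the groups overlap.

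Called genes of the other respiratory complexes and of the tricarboxylic acid cycle are to be read against the shares of all clusters. Of all clusters 7.42% were called higher and 7.98% lower in KOT against KOC, and 10.2% and 11.3% in WTT against WTC. In WTT against WTC the share called higher lay above 10.2% in each list except complex II, on 2 genes each. Of 4 complex II subunits 0 were called in either response. Of 10 genes of complex III and cytochrome c, 1 was called higher (Uqcrq, 0.42, adjusted p = 0.00474 by limma) and 1 lower (Uqcr11, -0.51, adjusted p = 0.015) in KOT against KOC, and 2 were called higher in WTT against WTC (Uqcrq, 0.32, and Uqcrc1, 0.24). Of 10 complex IV subunits 1 was called higher in KOT against KOC (Cox5a, 0.40, adjusted p = 0.0106) and 2 in WTT against WTC (Cox5a, 0.46, and Cox6b1, 0.23). Of 16 ATP synthase subunits 0 were called in KOT against KOC and 2 were called higher in WTT against WTC (Atp5pb, 0.28, and Atp5g3, 0.26). Of 11 enzymes of the tricarboxylic acid cycle 2 were called higher and 1 lower in each response, citrate synthase (Cs) being higher by 0.25 in KOT against KOC and by 0.24 in WTT against WTC. The mean log2 level of the complex IV subunits ran from 10.986 to 10.998 in KOT and from 10.84 to 10.96 in KOC. In WTT it ran from 11.002 to 11.005, very narrowly above KOT, and in WTC from 10.87 to 10.89. The mean log2 level of the ATP synthase subunits ran from 10.54 to 10.58 in KOT, 10.36 to 10.50 in KOC, 10.51 to 10.52 in WTT and 10.39 to 10.45 in WTC. Both lists thus lay higher on every bleomycin array than on every PBS array of the same genotype, which the Nduf mean did not. The medians of these 5 lists lay between 0.01 and 0.13 in KOT against KOC and between 0.07 and 0.16 in WTT against WTC.

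Of 11 assembly factors of complex I without Nduf in their names, 1 was called higher in KOT against KOC (Foxred1, 0.20, adjusted p = 0.0477 by limma), and in WTT against WTC 1 was called higher (Foxred1, 0.21, adjusted p = 0.0271) and 1 lower (Tmem126b, a factor of the membrane arm, -0.27, adjusted p = 0.0182). Among 11 regulators of mitochondrial biogenesis 0 were called in KOT against KOC. In WTT against WTC the coactivator Ppargc1a fell by 0.67 (SE 0.15, adjusted p = 0.00762) and its relative Pprc1 rose by 0.52 (SE 0.14, adjusted p = 0.0207). Ppargc1a read 7.86 to 8.11 in KOT, 8.18, 8.69 and 8.07 in KOC, 7.57, 7.77 and 7.53 in WTT and 8.15, 8.34 and 8.39 in WTC, so that no KOT array overlapped the WTT arrays. The difference between its 2 responses, 0.35, had an adjusted p of 0.963.

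Glycolytic enzymes had the highest median of the energy metabolism lists examined here in both responses. Of 10 measured, 4 were called higher and 0 lower in KOT against KOC at a median of 0.32, and 7 were called higher and 0 lower in WTT against WTC at a median of 0.50. Pkm, the pyruvate kinase of most non-liver tissues, read 11.42, 11.14 and 11.46 in KOT, 10.50, 10.70 and 10.87 in KOC, 11.47, 11.53 and 11.65 in WTT and 10.81, 10.72 and 10.54 in WTC. It rose by 0.65 (SE 0.12, adjusted p = 0.00377) in KOT against KOC and by 0.86 (SE 0.12, adjusted p = 7.21e-04) in WTT against WTC, and Ldha, which turns pyruvate into lactate, rose by 0.57 and 0.61. Genes of the outer mitochondrial membrane and of protein import had positive differences for 11 of 11 members in both responses, with 2 called in KOT against KOC (Tomm40, 0.32, and Timm23, 0.36) and 6 in WTT against WTC (among them Timm23, 0.47, and Timm50, 0.27). Of 15 genes of the mitochondrial ribosome 0 were called in KOT against KOC and 3 were called higher in WTT against WTC (Mrps7, Mrpl11 and Mrpl12, 0.25 to 0.31). In both genotype comparisons 0 genes of any of these lists were called.

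**Figure D5:**
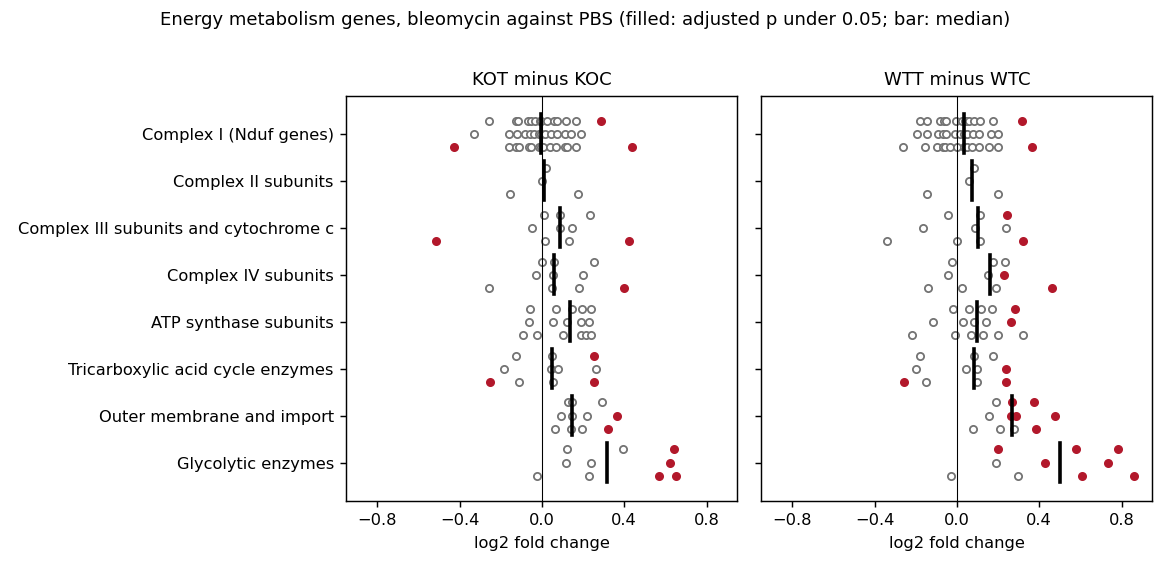
Log2 fold change (x axis) of each gene (points) of complex I and 7 other lists of energy metabolism (rows) in KOT minus KOC (left) and WTT minus WTC (right), with filled red points for an adjusted p under 0.05 and a bar at the median of each list. The complex I genes centre on 0 (medians -0.01 and 0.03), and the glycolytic enzymes lie mostly to the right (medians 0.32 and 0.50).

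Transcripts of cell type markers moved with bleomycin beside these values. Mean log2 levels of the 10 alveolar type 2 genes ran from 11.56 to 12.06 in KOT, 12.29 to 12.37 in KOC, 11.42 to 11.86 in WTT and 12.18 to 12.20 in WTC, with 6 genes called lower in KOT against KOC and 7 in WTT against WTC. Of 9 alveolar type 1 genes 7 were called lower in each response, and of 9 endothelial genes 8. The 8 macrophage genes averaged 9.82 to 10.04 in KOT, 9.23 to 9.39 in KOC, 9.82 to 10.14 in WTT and 9.33 to 9.49 in WTC, and 6 were called higher in KOT against KOC and 5 in WTT against WTC. Of 9 neutrophil genes 0 were called in KOT against KOC and 2 were called higher in WTT against WTC.

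Heart muscle is rich in complex I, and markers of heart muscle and of brown and white fat varied too. The 15 cardiac muscle genes averaged 8.62 to 8.92 in KOT, 8.24 to 9.74 in KOC, 7.81 to 8.35 in WTT and 8.93 to 9.43 in WTC, with 0 called in KOT against KOC and 9 called lower in WTT against WTC. No KOT array overlapped the WTT arrays in this list. Among 9 adipocyte genes 3 were called lower in each response. Ciliated cell genes were called lower for 1 of 8 in KOT against KOC and 6 of 8 in WTT against WTC, T cell genes for 0 of 7 and 1 of 7, and B cell genes for 0 of 6 and 3 of 6. Of 8 fibroblast genes 3 were called higher and 3 lower in each response. The part of these shifts in the Nduf values was not tested.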

How the data were processed

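Per the study's methods, the authors ran RMA in Affymetrix Power Tools (version not given in the sources used here), with quantile normalization of the arrays together and median polish per transcript cluster, and deposited log2 values of 35556 clusters for 12 mice. Quantile normalization gives the probe signals of all arrays one distribution, so a shift of all transcripts at once cannot be seen. Fold changes are ratios within these log2 values. No further normalization or filter was applied here, groups came from the labels alone, and the 3 mice of a group are separate animals.

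One mean per group was fitted to all 12 arrays (8 residual degrees of freedom) in R 4.3.3 by limma 3.58.1, moderated and two-sided, over the 23410 clusters with a gene symbol. With 3 arrays against 3 the smallest exact p of 1 gene is 0.1, so calls rest on variances pooled over clusters, and the number of arrays limits the precision. LPE was written anew in R, with 100 intensity bins and a spline of 10 degrees of freedom. Both tests were run on simulated data, in which LPE made more false calls than its threshold allows.

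Levels are given in every array for the 3 core, 4 accessory and 2 assembly genes with the smallest p in each comparison of groups and the 3 for the difference between responses, plus Ndufa4, Ndufa4l2 and Ndufab1. Other lists name up to 3 genes, by smallest p. The members, the lists of pathways and of cell type markers, the tests and the alternatives were chosen with earlier results of these data known. Promoter windows are those of RefSeq, matched by gene ID. Array weights used statmod 1.5.0. The authors' filter on detection above background was not used here.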

Additional observations from a re-analysis of the deposited data

Results flagged for a closer look

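Ndufaf2 is listed because every KOT array lay below every KOC array while every WTT array lay above every WTC array. The log2 difference was -0.16 in KOT against KOC and 0.17 in WTT against WTC, and the difference between these responses was -0.33 (SE 0.10, unadjusted p = 0.00636, adjusted p = 0.845 by limma). It was the only member with such opposite responses, which 0.226% of all clusters showed. The KOC arrays (7.17 to 7.39) had the highest mean of the 4 groups, and the cause of the pattern was not tested.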

How the results depend on the processing

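The called Nduf genes were the reported ones in 18 of 24 alternatives in KOT against KOC (0 to 8 called) and in 16 of 24 in WTT against WTC (0 to 3 called), and 0 were called in any alternative of the genotype comparisons and of the difference between responses. Some of these alternatives reuse the main fit. Keeping only genes with a single cluster, or leaving out Ndufa4 and Ndufa4l2, could not change which genes were called in either response. Taking the lowest cluster of a gene could not lose a called gene. The medians of the 43 genes moved by less than the SD of the array medians within groups (0.05) in 118 of 118. That margin is wider than every reported median, of which 0.03 in WTT against WTC lay furthest from 0. A change of sign would therefore not be seen by it. At an adjusted p under 0.01 the fit is the same, so the medians could not move there. The counts that moved most were those of LPE, with 0 called in KOT against KOC and 0 in WTT against WTC, of an adjusted p under 0.01, with 1 (Ndufa8) in WTT against WTC, and of array weights, with 8 in KOT against KOC, of which 4 were higher (Ndufa10, Ndufa8, Ndufb6 and Ndufb8) and 4 lower (Ndufa2, Ndufaf2, Ndufb3 and Ndufs7). Why these settings differ was not tested. Among called genes Ndufa8 in KOT against KOC lost its call without KOC 53 (0.24, adjusted p = 0.0709), while Ndufa10 in WTT against WTC passed with equal array medians (0.22, adjusted p = 0.0283), with trended and robust moderation (adjusted p = 0.0472), without dim clusters (adjusted p = 0.0417) and without WTC 76 (0.24, adjusted p = 0.0436). With cyclic loess Ndufb11 in WTT against WTC (-0.22, adjusted p = 0.0486) and Ndufb8 in KOT against KOC (0.21, adjusted p = 0.0463) passed. Ndufaf3 in WTT against WTC passed without WTT 160 and Ndufa2 in KOT against KOC without KOT 80. Ndufa4, which was near 0 in all comparisons, changed sign with equal array medians in KOT against KOC (-0.013), with array weights (-0.041) and cyclic loess (-0.035) in KOC against WTC, and with LPE (0.013) and array weights (0.046) in KOT against WTT. When single arrays were left out, Ndufa4 ran from -0.14 to 0.14 in KOT against KOC, from -0.092 to 0.19 in WTT against WTC, from -0.17 to 0.11 in KOT against WTT and from -0.12 to 0.15 in KOC against WTC, and Ndufa4l2 from -0.046 to 0.15 in WTT against WTC. LPE gives no value for the difference between responses, and a fit to only the arrays of the comparison is the same fit there. No paired analysis was possible because the groups share no animal numbers. Signal over background was not analysed here, so dim members such as Ndufaf6 (5.74 to 6.10) are not marked as detected or not.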
